A study of Mus musculus with 12 samples.

Results

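The loci of 7 genes that report output of the BRAF-MAPK pathway were described: Dusp6, Spry2, Spry4, Etv4, Etv5, Ccnd1 and Myc. Members were all peaks of 10 histone mark lists that lay in the gene span, rounded to 1 kb on the mouse build mm9, or within 50 kb on either side. They numbered 142 of the 173601 peaks in all lists, 35 at Dusp6, 28 at Spry4, 26 at Ccnd1, 24 at Etv4, 12 at Myc, 11 at Spry2 and 6 at Etv5. Chromatin immunoprecipitation and sequencing (ChIP-seq) had been done for 5 marks in melanoma cells from ear tumours of mice, with Kmt2d intact (iBIP;KMT2D+/+, called WT) or with both copies conditional (iBIP;KMT2DL/L, called mutant). All cells carried the iBIP alleles: Tyr-CreERT2, a tamoxifen-activated Cre driven by the tyrosinase promoter of melanocytes, Rosa26-rtta, TetO-BRAFV600E (oncogenic BRAF with V600E), PTENL/L and INK/ARFL/L, on a mixed FVB and B6 background. The mice received doxycycline, and 4-OHT (1 uM) on the ears gave rise to the tumours. The ages of the mice are not given in the sources used here. The TetO transgene needs doxycycline, and the medium given in the labels names none, so the state of the BRAF transgene when chromatin was taken is not known here. Each mark had a single library in each genotype, by its identifiers from 1 line per genotype, so Kmt2d status and line cannot be told apart. No difference between genotypes was tested or checked in replicates. Read depth is unknown, and a missing peak means only that nothing passed the authors' threshold. The labelled cell type and the Kmt2d deletion were not checked here, since no gene table on mm9 was used.

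In the MAPK pathway, active BRAF phosphorylates MEK, and MEK phosphorylates ERK. ERK then switches on early genes through ETS and AP-1 transcription factors, and some of the products feed back to restrain the pathway. DUSP6 is a phosphatase of ERK, the Sprouty proteins SPRY2 and SPRY4 restrain receptor and RAS signalling, ETV4 and ETV5 are ETS factors of the PEA3 group, cyclin D1 (Ccnd1) drives entry into the cell cycle, and MYC is a transcription factor of growth. These genes are widely read as an output of BRAF in melanoma. H3K4me3 marks promoters, H3K27ac active promoters and enhancers, H3K4me1 enhancers, H3K79me2 transcribed gene bodies and H3K27me3 Polycomb-repressed regions. KMT2D places H3K4me1 at enhancers.

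H3K4me3 peaks reached the 5′ ends of all 7 genes in both genotypes, and the sequence before the start was at hand for 3 of them. The 250 bases before the RefSeq start (build GRCm38.p6) are shown for Dusp6, which had the longest H3K4me3 peak of the set, for Spry2 and for Etv5. Etv5 had H3K27me3 within 2 kb of its 5′ end in the mutant alone. It has 2 RefSeq starts, of which the first is shown. Which of these starts lies nearer that peak was not examined across the 2 builds. Capitals mark CGGAA, a form of the ETS motif, searched on both strands.
Dusp6 (GRCm38.p6 chr10:99262981-99263230, + strand): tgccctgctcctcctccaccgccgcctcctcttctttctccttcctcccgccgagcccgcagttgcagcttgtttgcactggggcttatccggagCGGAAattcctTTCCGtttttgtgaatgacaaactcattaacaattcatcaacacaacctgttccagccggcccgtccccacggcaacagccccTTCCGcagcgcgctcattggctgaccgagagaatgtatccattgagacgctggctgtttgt
Spry2 (GRCm38.p6 chr14:105896820-105897069, - strand): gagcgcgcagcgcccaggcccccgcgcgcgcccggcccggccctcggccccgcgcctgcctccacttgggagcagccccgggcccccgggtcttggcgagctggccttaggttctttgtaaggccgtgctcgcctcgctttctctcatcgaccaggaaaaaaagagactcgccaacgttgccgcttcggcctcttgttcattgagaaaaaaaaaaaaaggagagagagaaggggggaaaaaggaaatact
Etv5 (GRCm38.p6 chr16:22439571-22439820, - strand): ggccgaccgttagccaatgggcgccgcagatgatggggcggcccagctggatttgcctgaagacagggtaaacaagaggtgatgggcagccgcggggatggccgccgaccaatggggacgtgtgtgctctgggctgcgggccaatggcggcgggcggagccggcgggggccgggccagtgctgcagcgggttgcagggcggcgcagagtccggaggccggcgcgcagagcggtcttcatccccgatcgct

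The form CGGAA stood 3 times before Dusp6 and was not in these windows of Spry2 and Etv5. CGGAA occurs at least 1 time in 25.2% of the 32851 RefSeq promoter windows of this length. Its letters hold a CpG, and a share among windows of like CpG content was not computed. Shorter ETS letters such as GGAA were not searched, and GGAA does occur in the Spry2 window. The absence of CGGAA is thus not an absence of all ETS motifs. The AP-1 motif TGANTCA (6.75% of windows) and the E-box CACGTG (6.02%) were in none of the 3 windows. The CCAAT box (CCAAT, 33.8%) was found 1 time before Dusp6 and 3 times before Etv5, with no base shared with a CGGAA match. All 3 windows were rich in CpG, with 16 CpG in Dusp6, 23 in Spry2 and 27 in Etv5 against a median of 6. A match is a description of the letters, not a binding site.

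Across the 7 loci, the promoter mark was about as long in both genotypes, while H3K4me1 and H3K79me2 covered less in the mutant and H3K27me3 covered more. Over the gene spans, H3K4me3 covered 22423 bp in WT against 21946 bp in the mutant, a mutant over WT ratio of 0.979. H3K27ac covered 14638 and 13133 bp (0.897), H3K79me2 29824 and 22419 bp (0.752), and H3K27me3 9737 and 13909 bp (1.43). H3K4me1 covered 1392 bp of the gene spans in WT, all of it in 1 Spry4 peak, and none in the mutant. That peak ranked 9602 of 15981 in WT and is not among the strongest 5358, the length of the mutant list.

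Over the flanks, H3K4me3 covered 20352 bp in WT against 21089 bp in the mutant (1.04), and H3K27ac 45555 and 45315 bp (0.995). H3K4me1 covered 8727 and 2845 bp of the flanks (0.326), and 4735 and 2845 bp (0.601) when the WT list was limited to as many peaks as the mutant list. H3K79me2 covered 11142 and 7702 bp of the flanks (0.691), and H3K27me3 22827 and 41803 bp (1.83). The whole lists had ratios of 1.05 for H3K4me3, 1.02 for H3K27ac, 0.300 for H3K4me1, 0.824 for H3K79me2 and 1.36 for H3K27me3. The order of the marks at these genes was thus that of the whole lists. The flank ratio of H3K27me3 stood above that of its list with all 7 loci, and was 1.40 without Etv4. A single locus carried much of several of these ratios: without Dusp6 the flank ratio was 0.676 for H3K4me1 and 1.08 for H3K79me2, and without Ccnd1 that of H3K4me1 was 0.160.

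**Figure D1:**
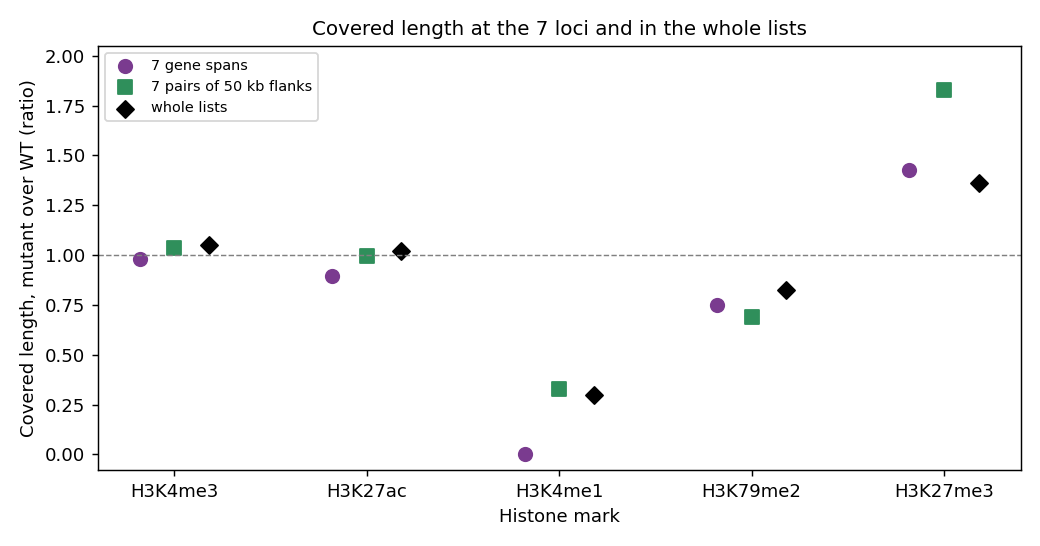
Covered length in the mutant over that in WT (vertical axis, ratio) for each mark, summed over the 7 gene spans (circles), over their 50 kb flanks (squares) and over the whole lists (diamonds). The 3 points of H3K4me1 lie lowest, from 0.0 over the genes to 0.326 in the flanks, and H3K27me3 in the flanks lies highest, at 1.83.

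The same lengths were read against all 100 kb bins of the genome with H3K4me3 in either genotype, calling a bin or locus lower or higher when the covered length differed by at least 1.5 times. Most loci are slightly longer than the bins, and the Etv5 locus is much longer, at 159000 bp. H3K4me1 was lower in the mutant at 3 of the 4 loci that had it (Dusp6, Spry4 and Etv4), beside 82.8% of the bins with the mark. It was higher at none of them, beside 6.43% of the bins. H3K27me3 was higher at 3 of 4 loci (Etv4, Etv5 and Ccnd1), beside 39.6% of bins, and lower at none, beside 18.5%. H3K79me2 was lower at 2 of 7 loci (Dusp6 and Ccnd1), beside 32.2%, and higher at Etv5 alone, beside 5.31%. The Etv5 call for H3K79me2 rests on 223 bp in the mutant and none in WT. H3K27ac was lower at Ccnd1 alone, beside 17.8%, and higher at Etv5 alone, beside 10.9%. No locus passed that fold for H3K4me3, for which 8.46% of bins were lower and 7.57% higher. With 4 or 7 loci per mark, these shares do not set the genes apart from the rest of the genome.

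**Figure D2:**
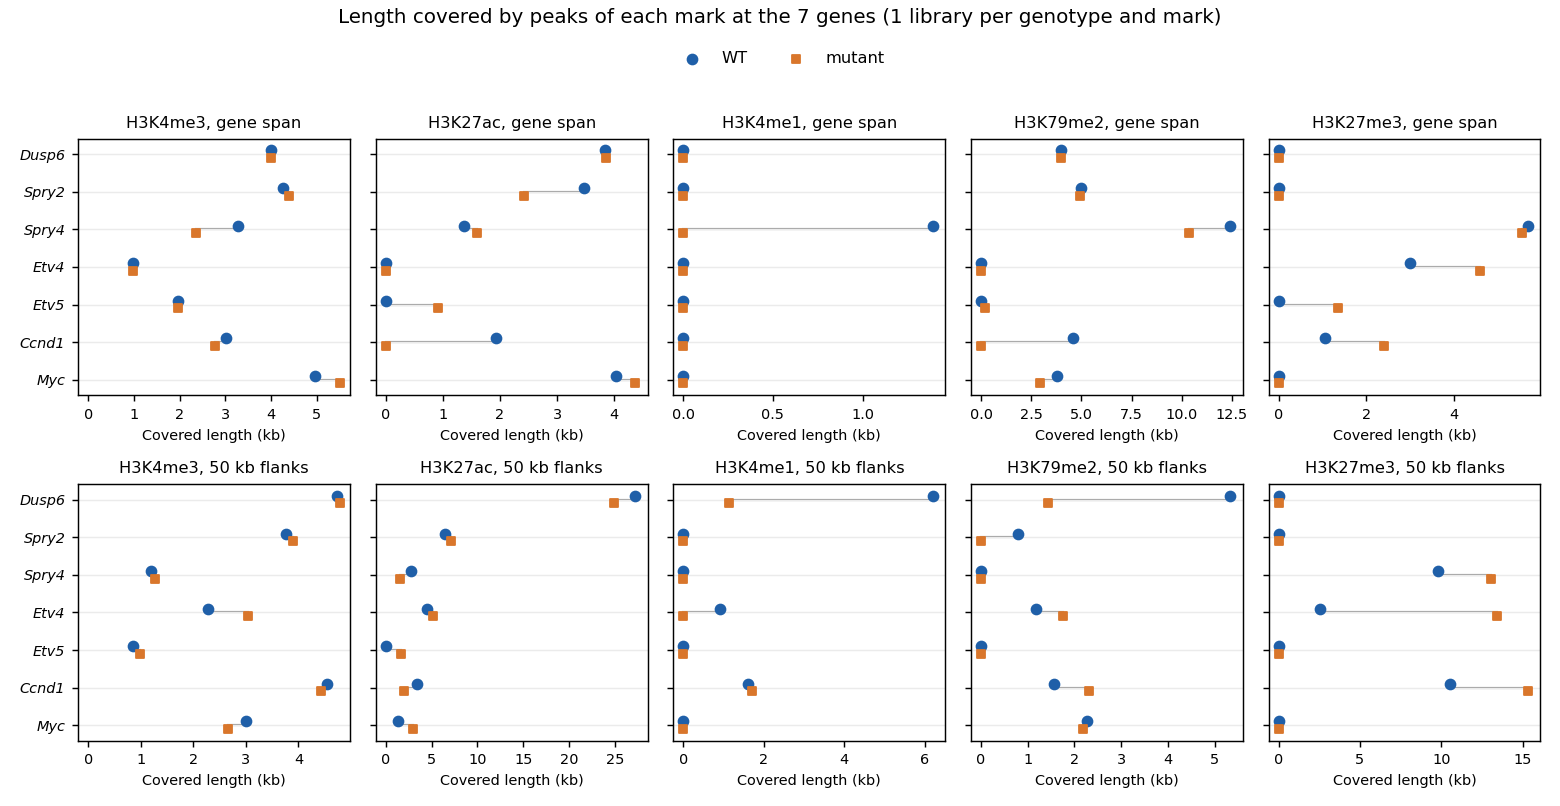
Length covered by peaks (horizontal axes, kb) of each mark over the gene span (upper row) and the 50 kb flanks (lower row) of each gene, with WT as circles and the mutant as squares. Among the longer lines are H3K4me1 in the Dusp6 flanks (6201 to 1137 bp), H3K79me2 over the Ccnd1 gene (4600 to 0 bp), and H3K27me3 in the flanks of Etv4 (2520 to 13416 bp) and Ccnd1 (10544 to 15319 bp). Each panel has its own scale.

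At the 5′ ends, within 2 kb, H3K4me3 was present at 7 of 7 genes in both genotypes. H3K27ac accompanied it at 5 genes in WT (Dusp6, Spry2, Spry4, Ccnd1 and Myc) and at 4 in the mutant, where Ccnd1 had none. Of all H3K4me3 peaks, 77.5% in WT and 72.7% in the mutant had H3K27ac within 2 kb of the centre. H3K79me2 was there at 4 genes in WT (Dusp6, Spry2, Spry4 and Ccnd1) and at 4 in the mutant, with Etv5 in place of Ccnd1, beside 62.2% and 57.4% of all H3K4me3 peaks. H3K27me3 was there at Spry4, Etv4 and Ccnd1 in WT and also at Etv5 in the mutant, so at 3 and 4 of 7 genes, beside 17.9% and 16.9%. H3K4me1 was near the 5′ end of Spry4 in WT (28.0% of all WT H3K4me3 peaks) and of no gene in the mutant (12.2%). For Myc the window may not be centred on the start, since the span of 7000 bp used here is longer than the RefSeq gene of 5021 bp.

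**Figure D3:**
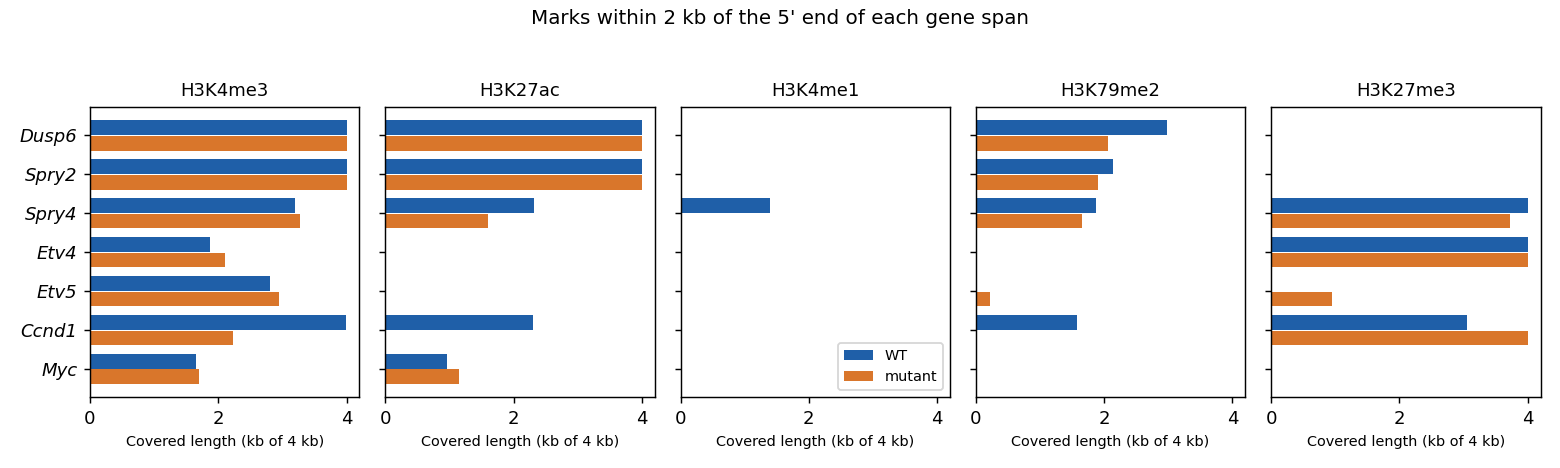
Length covered by each mark (horizontal axes, kb) in the 4 kb around the 5′ end of each gene span, with WT and mutant bars. Dusp6 and Spry2 were filled by H3K4me3 and H3K27ac in both genotypes, Etv4 by H3K27me3 in both, and Ccnd1 had H3K27ac (2300 bp) and H3K79me2 (1571 bp) in WT only.

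The genes fell into those without any H3K27me3 peak (Dusp6, Spry2 and Myc) and those with H3K27me3 in at least 1 genotype (Spry4, Etv4, Ccnd1 and Etv5). The former had the H3K4me3 peaks with the deposited score of 3100 in both lists, a value shared by 711 WT and 314 mutant H3K4me3 peaks that therefore cannot be ranked. In the latter, the H3K4me3 peak that covers the 5′ end had a score from 657.0 to 2179 in WT and from 496.9 to 1710 in the mutant. Scores rank peaks within a list only.

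Dusp6, the ERK phosphatase (mm9 chromosome 10, from 98726001 to 98730000), had the densest acetylation of the set and the largest H3K4me1 difference. Its H3K4me3 peak was 8730 bp wide in WT (98723140 to 98731869) and 8784 bp wide in the mutant (98723029 to 98731812), the 23rd widest of 14723 and the 35th widest of 13691. H3K27ac covered 3831 bp of the gene in WT against 3848 bp in the mutant, and H3K79me2 all 4000 bp in both. In the flanks H3K27ac covered 27200 bp in WT against 24895 bp in the mutant, with 21228 bp in both. The promoter and its acetylated surroundings were therefore alike in extent in the lists.

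H3K27ac at Dusp6 formed a domain of 58472 bp in WT, when peaks were joined at the stitching distance customary for super-enhancers, and of 55825 bp in the mutant. By acetylated length these domains ranked 155 of 12534 and 193 of 11442. The strongest distal peak lay upstream, 17.1 to 23.0 kb from the 5′ end in WT (98703039 to 98708925, score 3100) and 17.8 to 23.7 kb in the mutant (98702321 to 98708218, score 2608). Mutant H3K27ac covered 5180 of its 5887 bp. A downstream H3K27ac peak, 19.7 to 23.1 kb from the 5′ end in WT (98745731 to 98749121), was also present in the mutant list.

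H3K4me1 at Dusp6 covered 6201 bp of the flanks in WT, in 5 peaks, and 1137 bp in the mutant, in 1 peak, with no bp in common. The WT peaks lay at 35.2 to 33.7, 22.9 to 21.3 and 12.4 to 11.4 kb upstream, and at 4.2 to 5.1 and 7.1 to 8.2 kb downstream of the 5′ end. In that order, they ranked 4142, 4265, 7732, 13030 and 9424 of 15981 by score. Only those at 35.2 to 33.7 and 22.9 to 21.3 kb upstream are among the strongest 5358, the length of the mutant list. The mutant peak, 20.9 to 19.7 kb upstream (98705147 to 98706283), sat inside the strong distal H3K27ac peak, beside the place of a WT peak and within 1000 bp of it. Thus H3K4me1 of both genotypes touched this distal element, at different bases. The element at 12 kb upstream had H3K27ac in both lists (98713474 to 98714736 in WT, 98712771 to 98714879 in the mutant) and H3K4me1 in WT alone. The farthest element, 35.4 to 33.9 kb upstream (98690650 to 98692101), had both H3K27ac (score 227.0) and H3K4me1 (score 245.6) in WT and neither in the mutant. Further H3K27ac peaks without a mutant counterpart lay from 98698278, from 98699621 and from 98720340, with scores of 131.8, 93.3 and 200.4; the lowest score of these lists was 90.

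H3K79me2 in the Dusp6 flanks covered 5339 bp in WT against 1430 bp in the mutant. Over the gene the peak was 5951 bp in WT (deposited score 181.0, which is 10 times −log10 q) and 4684 bp in the mutant (score 104.0). The mutant peak lay wholly inside the WT one. The WT peaks at 23.8 to 22.3 and 17.6 to 17.3 kb upstream, at the edges of the strong distal H3K27ac peak, had no mutant H3K79me2 peak. Neighbouring genes of this locus in RefSeq are 3 long non-coding RNA genes, Gm34574, Gm34777 and Gm34921.

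Spry2, a Sprouty inhibitor of RAS signalling (chromosome 14, from 106291001 to 106296000), differed little between the lists. H3K4me3 covered 4254 bp of the gene in WT against 4387 bp in the mutant, and H3K79me2 5000 and 4911 bp. H3K27ac covered 3476 bp in WT against 2413 bp in the mutant. The difference lay in a WT peak inside the gene, 2.6 to 3.8 kb from the 5′ end (score 159.4), that the mutant list did not hold. An element 27.2 to 23.5 kb upstream (106319521 to 106323213 in WT) had H3K27ac in both lists, with scores of 1399 and 1375, and a short H3K4me3 peak in both. H3K79me2 reached past the gene over 791 bp of the flanks in WT against 8 bp in the mutant. No H3K4me1 peak was called at the Spry2 locus in either genotype, also not at this element. RefSeq has no other gene within 50 kb of Spry2.

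Myc (chromosome 15, from 61815001 to 61822000) also kept its promoter marks in the mutant list. H3K4me3 covered 4952 bp of the span in WT against 5493 bp in the mutant, H3K27ac 4023 and 4365 bp, and H3K79me2 3802 and 2937 bp. The upstream flank had no peak of any mark in either genotype. In the downstream flank, at its far edge, H3K4me3 covered 2998 bp in WT against 2668 bp in the mutant, and H3K27ac 1310 and 2934 bp. H3K79me2 covered 2259 and 2194 bp there, the near end of longer peaks. RefSeq neighbours of Myc are Gm18788 and the long non-coding RNA gene Pvt1. No H3K4me1 peak lay within 50 kb of Myc in either list.

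**Figure D4:**
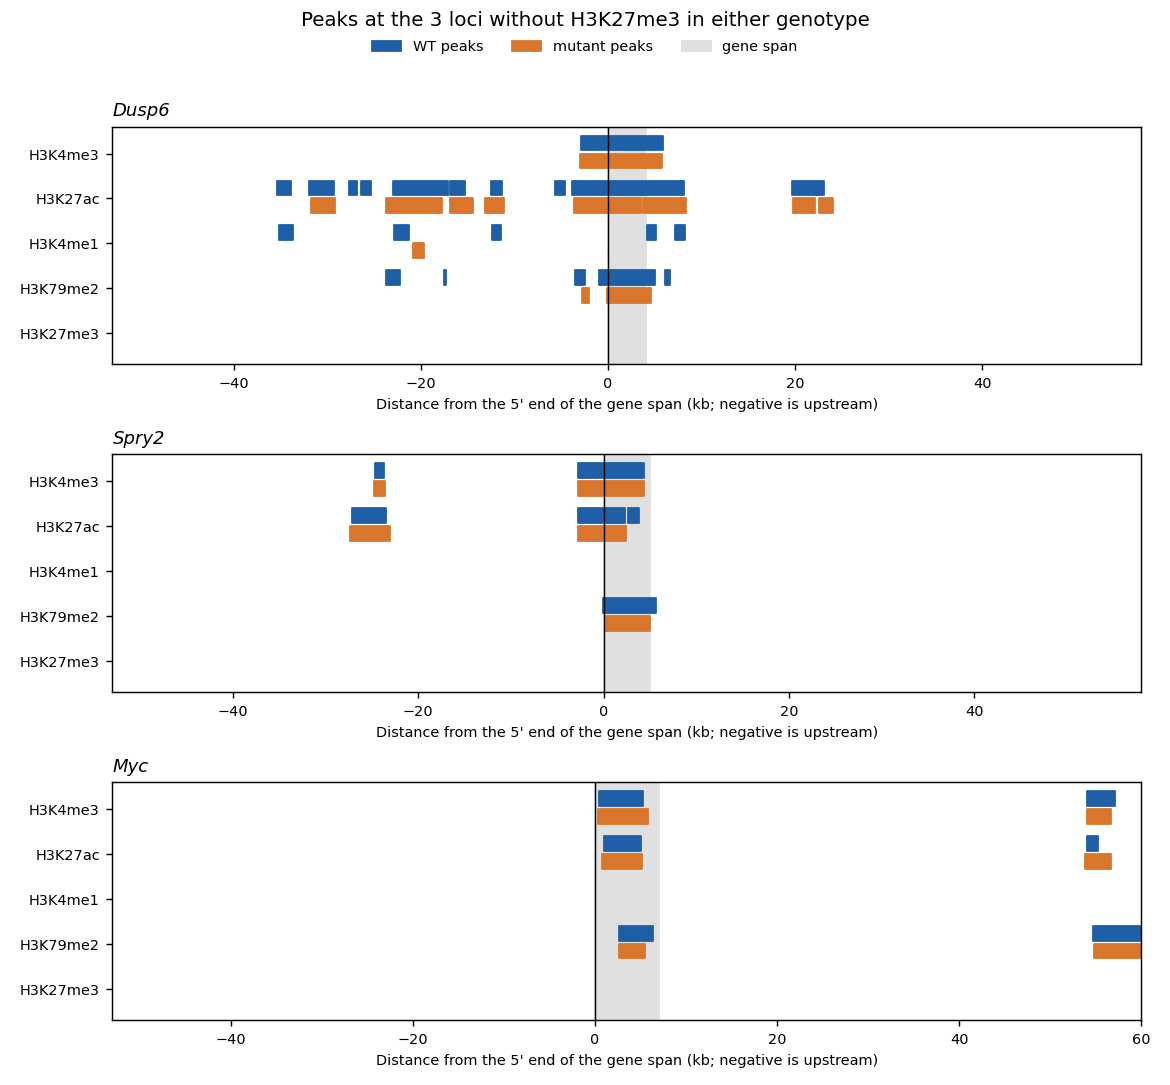
Peaks of the 5 marks in WT and mutant at Dusp6, Spry2 and Myc, by distance from the 5′ end of the gene span (horizontal axis, kb, negative upstream), with the gene span shaded. Dusp6 has 5 WT H3K4me1 peaks and 1 mutant one, 4 of the 11 WT H3K27ac peaks at Dusp6 have no mutant peak, the H3K27me3 tracks are empty, and H3K79me2 at the far right of Myc runs past the edge of the plot.

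Spry4, the other Sprouty gene of the set (chromosome 18, from 38746001 to 38761000), carried active and repressive marks together. The H3K4me3 peak at its 5′ end was 3582 bp wide in WT against 3632 bp in the mutant. A further WT H3K4me3 peak of 885 bp inside the gene (score 123.8) had no mutant counterpart. Over the gene, H3K79me2 covered 12422 bp in WT against 10348 bp in the mutant, and H3K27me3 5690 and 5561 bp. H3K27ac covered 1377 bp of the gene in WT against 1599 bp in the mutant, and 2710 and 1545 bp of the flanks. Part of the WT peak at the 5′ end lay outside the span. The whole peak was 2325 bp wide in WT against 1599 bp in the mutant. The peak had its WT position from 38759624 to 38761948 and its mutant position from 38759172 to 38760770, with 1147 bp shared. H3K4me1 lay from 38759168 to 38760559 in WT (score 140.0) and was not called in the mutant. This was the 1 gene whose own span had H3K4me1. In the flanks H3K27me3 covered 9763 bp in WT against 13068 bp in the mutant. An element 31.4 to 29.7 kb upstream had H3K27ac in both lists (1762 and 1545 bp). H3K27me3 of the same genotype covered all 1762 bp of this peak in WT and 583 bp of it in the mutant. The lists come from populations of cells, so marks of the same place may sit on different copies. RefSeq neighbours are Arhgap26 and the pseudogene Gm19100.

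Etv4, an ETS factor of the PEA3 group (chromosome 11, from 101631001 to 101646000), had H3K4me3 and H3K27me3 at its start and neither H3K27ac nor H3K79me2 over the gene in either genotype. H3K4me3 covered 980 bp of the gene in WT against 975 bp in the mutant. H3K27me3 at the start was 5514 bp wide in WT (101643007 to 101648520) and 8970 bp wide in the mutant (101642350 to 101651319). Over the gene H3K27me3 covered 2994 bp in WT against 4595 bp in the mutant. In the upstream flank it covered 2520 bp in WT, in 1 peak, and 13416 bp in the mutant, in 8 peaks, a ratio of 5.32. This was the largest difference in bp of H3K27me3 at the 7 genes. Of the mutant H3K27me3 peaks of this locus, 9 had no WT peak. Their deposited scores were 34.0 to 52.0, and the longest was 3534 bp (101669625 to 101673158).

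Downstream of Etv4, an element 24.3 to 26.5 kb from the 5′ end had H3K27ac in both lists (101619489 to 101621745 in WT, 101618848 to 101621427 in the mutant). H3K4me1 was called on it in WT alone, over 915 bp (score 143.3). That H3K4me1 peak ranked 9334 of 15981 in WT and is not among the strongest 5358, the length of the mutant list. Farther on, 50.5 to 51.9 kb from the 5′ end, H3K4me3, H3K27ac and H3K79me2 lay together in both genotypes. A mutant H3K27ac peak with no WT counterpart, 47.4 to 46.3 kb upstream, had a score of 94.2. RefSeq neighbours of Etv4 are Dhx8 and Gm39392.

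Etv5, the second PEA3 gene (chromosome 16, from 22381001 to 22440000), had the fewest peaks, 1 in WT and 5 in the mutant. H3K4me3 at the 5′ end was 2799 bp wide in WT (22438049 to 22440847) and 2954 bp in the mutant (22438038 to 22440991). WT had no other peak over the gene or its flanks. The mutant had H3K27me3 over 1343 bp inside the gene, reaching within 2 kb of the 5′ end (22437609 to 22438951, score 51.0). Of these, 914 bp were shared with its H3K4me3. It also had a short H3K79me2 peak of 223 bp (score 41.0), an H3K27ac peak inside the gene (22399312 to 22400219, score 167.7) and one in the downstream flank (22358092 to 22359765, score 352.2). None of these overlapped H3K4me1, and no H3K4me1 was called at this locus in either list. The RefSeq neighbour is Dgkg.

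Ccnd1, which encodes cyclin D1 (chromosome 7, from 152116001 to 152126000), was the gene whose own active marks differed most. H3K27ac covered 1931 bp of the gene in WT and none in the mutant, and H3K79me2 4600 bp in WT and none in the mutant. H3K4me3 covered 3015 bp in WT against 2775 bp in the mutant. H3K27me3 covered 1053 bp in WT against 2410 bp in the mutant. At the start the H3K27me3 peak ran from 152124948 to 152129490 in WT and from 152123591 to 152129154 in the mutant.

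The 3 WT H3K27ac peaks at the Ccnd1 start (from 152123459 to 152124251, from 152124704 to 152125841 and from 152126723 to 152127633) had scores of 106.0 to 111.9 against the lowest score of 90. They ranked 22596 to 23202 of 25060 in the WT list, so all 3 drop out when the WT list is limited to the 22343 peaks that the mutant list holds. The WT H3K79me2 peaks were stronger in their list: that from 152121901 to 152125571, 3671 bp wide, ranked 5175 of 26353 by −log10 q, and that from 152120132 to 152121060 ranked 19680. A second WT H3K4me3 peak, upstream of the start (152126657 to 152128589, score 321.4), had no overlapping mutant peak.

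In the downstream flank of Ccnd1, 23.0 to 24.6 kb from the 5′ end, was the 1 H3K4me1 peak of the set that both lists shared. It ran from 152101393 to 152103003 in WT and from 152101422 to 152103129 in the mutant, with 1582 bp in common. H3K4me3, H3K27ac and H3K79me2 lay there in both genotypes too. Over the whole downstream flank H3K27me3 covered 7054 bp in WT against 12165 bp in the mutant. The longest of these peaks had 6387 bp in WT against 9161 bp in the mutant. The mutant list also had an H3K4me3 peak of 1457 bp inside that long peak (152081540 to 152082996), with no WT counterpart. RefSeq neighbours of Ccnd1 include Fgf15 and LTO1.

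**Figure D5:**
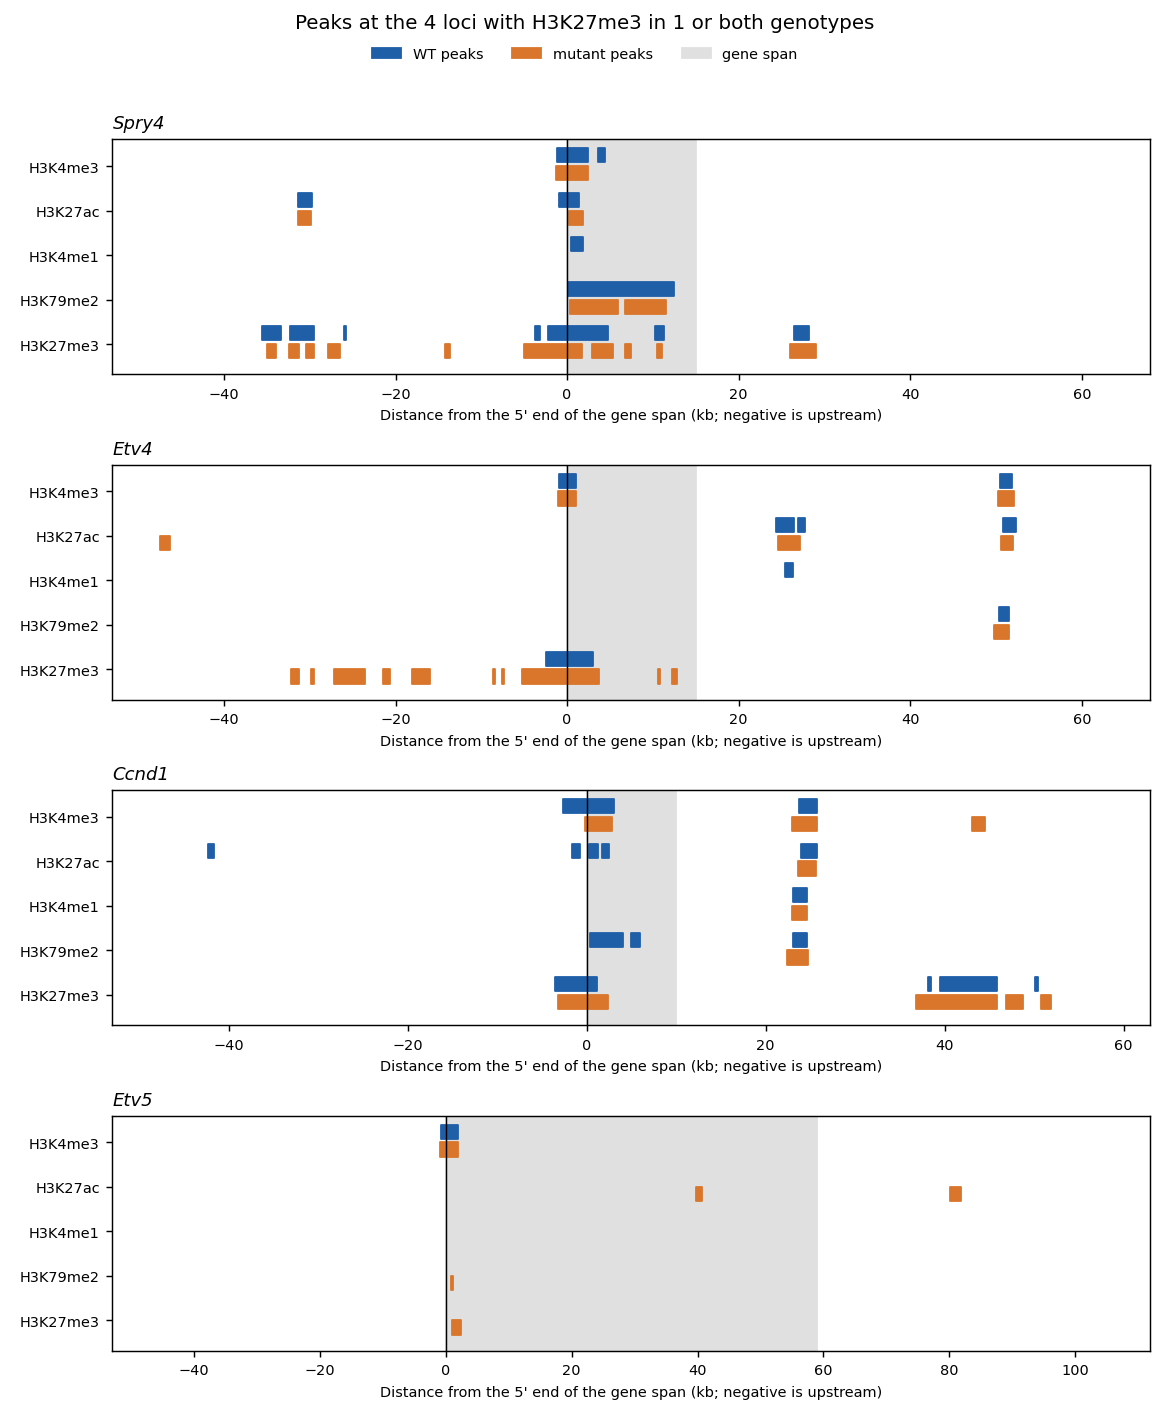
Peaks of the 5 marks in WT and mutant at Spry4, Etv4, Ccnd1 and Etv5, by distance from the 5′ end of the gene span (horizontal axis, kb, negative upstream), with the gene span shaded. Mutant H3K27me3 extends upstream of Etv4 in 8 peaks, and the gene body of Ccnd1 has H3K27ac and H3K79me2 in WT only.

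Counted by peak, the share without a peak of the other genotype is given with exact (Clopper-Pearson) 95% intervals, which cover counting error only. Of the WT H3K4me1 peaks at the 7 loci, 7 of 8 had no mutant peak (87.5%, 47.3 to 99.7), against 77.0% of the whole WT list. Of the mutant ones 1 of 2 had no WT peak (50%, 1.26 to 98.7), against 27.9%. For H3K27ac it was 9 of 26 in WT (34.6%, 17.2 to 55.7), against 24.1%, and 4 of 21 in the mutant (19.0%, 5.45 to 41.9), against 18.4%. H3K27ac peaks with no counterpart were shorter, with a median of 974 bp in WT against 2325 bp for the others.

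For H3K4me3 the shares were 2 of 13 in WT (15.4%, 1.92 to 45.4), against 11.3%, and 1 of 12 in the mutant (8.33%, 0.211 to 38.5), against 6.18%. For H3K79me2 they were 5 of 13 in WT (38.5%, 13.9 to 68.4), against 36.8%, and 1 of 10 in the mutant (10.0%, 0.253 to 44.5), against 15.3%. For H3K27me3 they were 2 of 12 in WT (16.7%, 2.09 to 48.4), against 35.0%, and 15 of 25 in the mutant (60.0%, 38.7 to 78.9), against 49.9%. Of these 15 mutant peaks, 9 were at Etv4. Every one of the 10 intervals held the share of its whole list. They are wide, rest on few peaks and treat peaks of the same locus as independent. They therefore neither set the loci apart from the lists nor show that the loci are like them.

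Distal acetylation, meaning H3K27ac peaks that overlap no H3K4me3 of the same genotype, was found in 13 WT and 12 mutant peaks at the 7 loci. Of the WT peaks 9 were at Dusp6, and of the mutant peaks 7. H3K4me1 of the same genotype was on 4 of the 13 WT peaks, against 36.2% of such peaks in the whole list, and on 1 of the 12 mutant peaks, against 15.4%. A mutant H3K27ac peak was on 8 of the 13 WT peaks. The same share over all distal WT peaks was not computed. Of all WT H3K27ac peaks, distal or not, 24.1% had no mutant peak. The WT peaks with H3K4me1 were 3 at Dusp6 and 1 at Etv4. In 2 of these 4, that at 12 kb upstream of Dusp6 and that downstream of Etv4, the mutant had H3K27ac and no H3K4me1. The WT H3K4me1 peaks on these 2 ranked 7732 and 9334 of 15981 by score. Neither is among the strongest 5358, the length of the mutant list, so both drop out with lists of equal length. Of all WT H3K4me1 peaks, 77.0% had no mutant peak, so this pattern is not shown to be particular to these loci.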

How the data were processed

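ChIP-seq peak lists of 5 marks in 2 genotypes were used, 1 library each; the 2 inputs were not used here, and the series text gives 6 modifications. Groups come from the titles. Per the submitters' processing notes, Bowtie, MACS, MACS2 and deepTools were used on mm9; no version or role is given. The deposited score of the H3K4me1, H3K27ac and H3K4me3 lists reads as 10 times −log10 p (lowest 90.0). The H3K79me2 and H3K27me3 broad peaks carry, as deposited by the authors, a fold enrichment (ratio), a −log10 p (lowest 5.00), a −log10 q and a score of 10 times the latter. Depth is not known.

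Covered bp, overlaps of at least 1 bp and bins were computed in Python 3.11.15 with numpy 2.4.6, pandas 2.3.3, scipy 1.17.1 and matplotlib 3.10.9, and interval code was tested on simulated data. No test between genotypes was possible. Peaks are named by rule: those within 2 kb of a 5′ end, and per locus, mark and genotype those with the best score in gene or flanks and the best without a counterpart; others named were chosen after their values were seen, as were the motifs. Members and lists were chosen with earlier results of these data known. Strand came from the RefSeq promoter table for 3 genes and from general knowledge for Spry4, Etv4, Ccnd1 and Myc. RefSeq neighbours and sequences are on GRCm38. Lists of other pathway genes and of cell type markers were drawn up but not analysed here, for want of their mm9 places. Coordinates count from 1.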

Additional observations from a re-analysis of the deposited data

How the results depend on the processing

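The alternatives were a stricter threshold (a minimum score of 100, or 3 for −log10 q), lists of equal length, peaks merged within 1000 bp, spans widened by 1 kb, flanks of 25 and 100 kb, other definitions of sharing, 5 kb around the 5′ end, and each locus left out. Of 44 ratios under settings other than leaving out a locus, 36 kept their side of 1 within 1.5 times. With lists of equal length the ratio was 1.02 for H3K4me3 and 1.03 for H3K27ac over the genes, and 1.07 for H3K27ac and 0.601 for H3K4me1 over the flanks. The H3K27ac ratio of the flanks was 1.02 with the stricter threshold, 1.04 with 25 kb and 1.21 with 100 kb flanks; that of H3K4me3 was 0.943 with 25 kb flanks. The direction for H3K4me3 and H3K27ac is thus not settled. For H3K27ac over the genes, equal lists drop the 2 weak WT peaks inside Ccnd1; for the others the cause was not tested.

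Leaving out a locus gave 0.942 to 1.02 (H3K4me3), 0.826 to 1.03 (H3K27ac), 0.694 to 0.889 (H3K79me2) and 1.29 to 2.06 (H3K27me3) over the genes. Over the flanks it gave 0.998 to 1.06 (H3K4me3), 0.958 to 1.11 (H3K27ac), 0.160 to 0.676 (H3K4me1), 0.563 to 1.08 (H3K79me2) and 1.40 to 2.20 (H3K27me3). H3K4me1 over the genes was 0.0 wherever a ratio existed; without Spry4 and with lists of equal length no bp were left in either genotype, so there is none. With peaks within 1000 bp counted as shared, the share without a counterpart was 0.0% for mutant H3K4me1 and 0.0% for WT H3K27me3. Within 5 kb, 2 genes had WT H3K4me1 at the 5′ end, not 1. H3K79me2 was there at 5 genes in WT and 5 in the mutant, not 4. The gene added was Myc, whose H3K79me2 peaks began 2.6 kb from the 5′ end of its span in both genotypes. No paired analysis was possible because each group has 1 library and the labels give no replicate numbers.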

Other observations

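At and beyond the edge of the downstream 50 kb flank of Myc, an H3K27ac domain stood 53.8 to 74.4 kb from the 5′ end of the span (mm9 chromosome 15, from 61868809 to 61889366). It was chosen after its values were seen. H3K27ac covered 6539 bp of it in WT against 13806 bp in the mutant, in 4 peaks each. H3K4me1 covered 3628 bp in WT, in 2 peaks, and no mutant H3K4me1 peak was called there. H3K4me3 covered 3139 and 2668 bp, H3K79me2 16684 and 14138 bp, and H3K27me3 was in neither list. By acetylated length the domain ranked 1884 of 12534 in WT and 748 of 11442 in the mutant. Acetylation of this domain was thus longer in the mutant list, and H3K4me1 was in the WT list alone. In the whole WT list, 77.0% of H3K4me1 peaks had no mutant peak. H3K27ac was higher in the mutant by at least 1.5 times in 10.9% of the 100 kb bins with the mark. How many other domains combine both was not counted, so the pattern is not shown to be particular to Myc.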
